A study of Mus musculus with 3 samples.

Results

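The solute carrier (Slc) transporters were described in 3 single-cell libraries of brain myeloid cells. A member was any row of the count tables whose symbol begins with Slc and a number, without Slc40a1 and Slc11a1, and with at least 5 CPM over all kept cells (CPM being UMI counts scaled to a common total per sum of cells). The tables held 240 such rows, of which 153 reached this floor and 87 did not, among 15338 genes in all and 9689 genes at or above the floor. The 5 members just above it were Slc22a5 at 6.517, Slc25a53 at 6.48, Slc25a14 at 6.198, Slc25a13 at 6.002 and Slc2a12 at 5.204 CPM, and the 5 rows just below it were Slc5a6 at 4.96, Slc35e4 at 4.95, Slc1a4 at 4.91, Slc25a35 at 4.41 and Slc5a10 at 4.296 CPM. Since most cells were microglia, a row that is abundant in rarer cells alone can miss this floor. Of the 153 members, 3 (Slc9a3r1, Slc4a1ap and Slc7a6os) carry an Slc symbol without being transporters themselves.

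The study asked what the isoforms of human CD33, an immunoglobulin-like receptor for sialic acid, do to microglia. Each of 3 genotypes was represented by 1 library of 10x 3′ single-cell RNA from brain cells sorted as CD11b positive, CD45 low and Cx3cr1 positive: Control (wild type, male), hCD33M (the long isoform, male) and hCD33m (the short isoform, female), all from mice aged 8 weeks. In this design each transgene sits behind a floxed stop in the Rosa26 locus and is switched on by Cre expressed from Cx3cr1, so it is on in Cx3cr1 expressing macrophages as well as in microglia, and the number of mice pooled into each library was not given for this experiment. With 1 library per genotype, differences between genotypes carry counting error only and have no test, and in hCD33m genotype and sex cannot be told apart. In the cells named microglia-like below, Cx3cr1 stood at 5671 CPM in Control, 3348 CPM in hCD33M and 3151 CPM in hCD33m. Whether Control mice carried the Cre allele was not given for this experiment. A shift shared by both hCD33 libraries can therefore not be assigned to the transgene apart from that allele, which was not tested. The human transgene itself was not analysed here.

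Solute carriers move nutrients, metabolites, ions and metals across membranes, and most of them do so without using ATP directly. Those of the plasma membrane take up sugars, amino acids, nucleosides and lactate, those of lysosomes return the products of digestion to the cytosol, and those of mitochondria (the Slc25 family) exchange adenine nucleotides, phosphate and metabolites with the matrix. Microglia are known for expressing the fructose carrier Slc2a5, and phagocytes of all kinds depend on lysosomal carriers to clear what they have engulfed.

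After leaving out cells with over 10% mitochondrial UMIs (unique molecular identifiers, 1 per captured molecule) or outside 200 to 8000 genes, 3412 Control, 5046 hCD33M and 5612 hCD33m cells remained, with median depths of 5436.5, 5078.5 and 5137 UMIs. Cells were clustered without the Slc rows, so no member helped to define a class, and clusters were named from marker genes. Microglia-like clusters held 2993, 4544 and 4877 cells, a cluster like border-associated macrophages (BAM-like, led by Pf4, Mrc1 and class II genes such as H2-Eb1) held 84, 101 and 127, and a monocyte-like cluster held 18, 23 and 28 (Control, hCD33M and hCD33m in this order, here and below). A further 317, 378 and 580 cells of low depth stayed unnamed. Between 7 and 10 cell barcodes were shared by each pair of libraries.

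The BAM-like cluster carried many microglial transcripts. P2ry12, a purine receptor that marks microglia, stood at 2168, 1658 and 1930 CPM there, against 3242, 3360 and 3466 CPM in microglia-like cells and 108, 278 and 409 CPM in monocyte-like cells. Of the 312 BAM-like cells, 186 had at least 30 UMIs of 5 microglial markers (P2ry12, Tmem119, Siglech, Sall1 and Fcrls) per 10000 UMIs, at a median depth of 11848 UMIs, and 126 were below that, at a median depth of 5671.5 UMIs; 42 cells lay between 25 and 35. The summed level of all 12 microglial markers was 25430, 18360 and 22570 CPM in the whole BAM-like cluster, 7288, 7131 and 7007 CPM in its marker-low cells and 3145, 3877 and 5497 CPM in monocyte-like cells, against 33790 to 36830 CPM in microglia-like cells. The whole dendritic-cell list, of which 5 of 6 genes have rows, summed to 32.98 to 199 CPM in the BAM-like cluster and to 2.50 to 3.46 CPM in microglia-like cells. Results on the BAM-like cluster are therefore given for all of its cells and for the marker-low cells, a division chosen after the data were seen. It selects cells by microglial transcripts, so transcripts that accompany those markers are lower in the marker-low cells by construction.

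Microglia-like cells expressed the whole set of members, most of them at low levels. All 153 had UMIs in the microglia-like cells of every library. Their levels can be set against each other without a length term because each captured molecule gave 1 tag at its 3′ end. The median member stood at 26.8 CPM; 25 members reached 100 CPM, 68 lay from 20 to 100 CPM and 60 lay under 20 CPM. The 15 highest members made up 43.4% of the summed level of all members. That sum was 8370, 8541 and 8496 CPM in microglia-like cells, 7520, 6908 and 7369 CPM in the BAM-like cluster, 4938, 5097 and 5099 CPM in its marker-low cells, and 4457, 5282 and 5043 CPM in monocyte-like cells.

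Slc2a5, the carrier for fructose, had the highest mean level of all members in microglia-like cells, at 386, 408 and 354 CPM, though its mean of 383 ± 26.9 CPM (SD, n = 3 libraries of different genotype) did not differ beyond that spread from those of the next members, Slc25a5 (381 ± 9.6 CPM) and Slc29a3 (378 ± 10.6 CPM). In the BAM-like cluster Slc2a5 stood at 254, 204 and 196 CPM, in the marker-low BAM-like cells at 0, 19.8 and 14.7 CPM, and in monocyte-like cells at 5.71, 32.8 and 19.97 CPM. Every microglia-like value lay above every value of the other classes, and Slc2a5 ranked 1 of the members in microglia-like, 7 in BAM-like and 69 in monocyte-like cells. With each cell thinned to 2000 UMIs, 50.2%, 52.7% and 47.7% of microglia-like cells held a UMI of Slc2a5 (exact 95% intervals 48.4 to 52.04, 51.3 to 54.2 and 46.3 to 49.2), against 0 of 18, 0 of 23 and 2 of 28 monocyte-like cells, a class that gives the background share. Without thinning the microglia-like shares were 81.8%, 80.5% and 77.8%, and the 8 UMIs of Slc2a5 in hCD33M monocyte-like cells lay in 1 cell. Thinning left out 30, 37 and 47 microglia-like cells and 0 monocyte-like cells. The intervals cover counting error only.

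**Figure D1:**
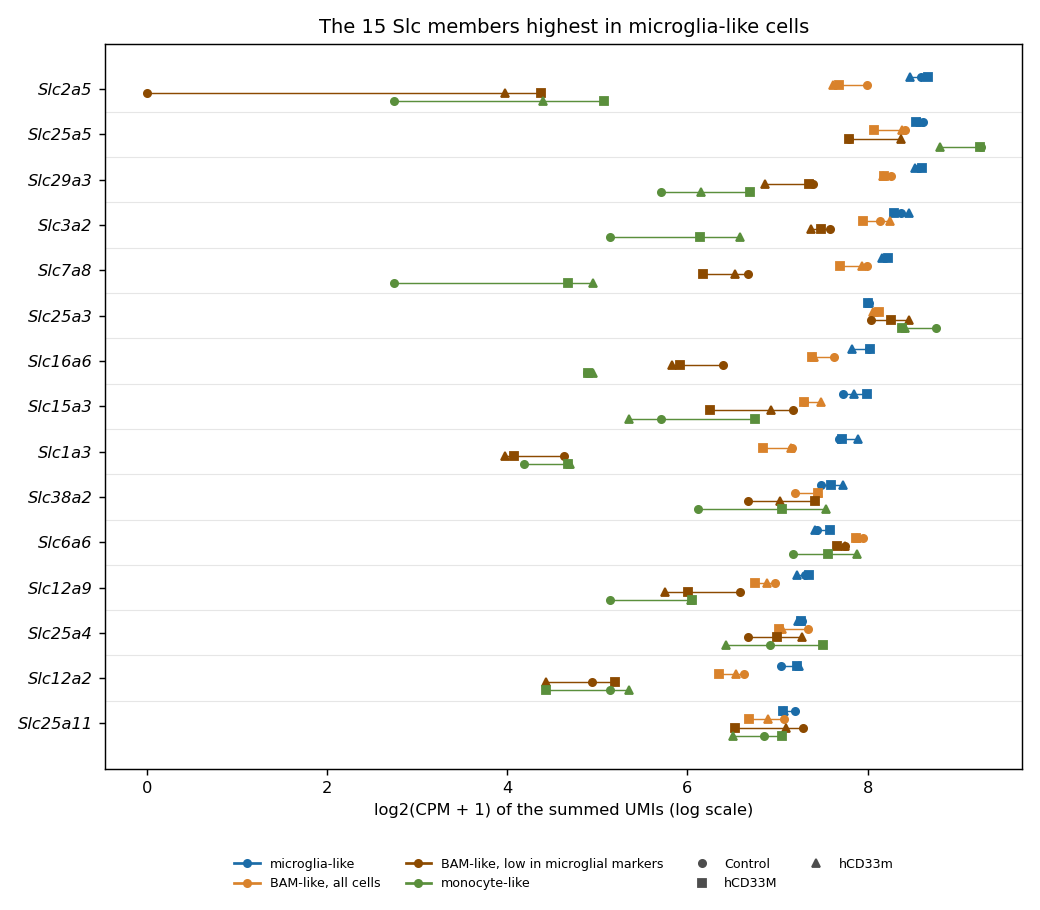
Levels of the 15 members with the highest mean in microglia-like cells, as log2(CPM + 1) of the UMIs summed per class and library; each point is 1 library and each line spans the 3 libraries of a class. For Slc2a5, Slc1a3 and Slc12a2 the marker-low BAM-like cells lie near the monocyte-like cells, while Slc25a5 and Slc25a3 were highest in monocyte-like cells.

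Amino acid carriers formed the group with the largest summed level, at 1853, 1909 and 1967 CPM over its 18 members (of 35 rows) in microglia-like cells. Slc3a2, the heavy chain that brings several amino acid exchangers to the surface, stood at 331, 313 and 352 CPM. Slc7a8, a light chain that pairs with it and exchanges neutral amino acids, stood at 291, 298 and 285 CPM. Slc1a3, which takes up glutamate and aspartate, reached 205, 209 and 236 CPM, Slc38a2, a sodium-coupled carrier of neutral amino acids, 178, 193 and 211 CPM, and Slc6a6, the taurine carrier, 173, 191 and 169 CPM. The spread over the 3 libraries was small beside these levels: the means were 291 ± 6.7 CPM for Slc7a8 and 332 ± 19.4 CPM for Slc3a2 (SD, n = 3 libraries of different genotype).

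Mitochondrial carriers came next, with 31 members of 42 rows and a sum of 1639, 1591 and 1610 CPM. The ADP/ATP carriers Slc25a5 (391, 371 and 381 CPM) and Slc25a4 (153, 152 and 149 CPM), the phosphate carrier Slc25a3 (258, 255 and 257 CPM) and the oxoglutarate carrier Slc25a11 (145, 133 and 133 CPM) led the group. Its summed level was 1415 to 1556 CPM in the BAM-like cluster and 1518 to 1773 CPM in monocyte-like cells, while that of the amino acid carriers was 605, 942 and 1039 CPM in monocyte-like cells, below every microglia-like value.

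The remaining groups were each led by 1 or a few members. Slc29a3, a nucleoside carrier of lysosomes, stood at 379, 388 and 366 CPM, and Slc29a1, its relative of the plasma membrane, at 88.4, 83.2 and 83.6 CPM. Slc16a6, of the monocarboxylate carrier family, stood at 257, 259 and 227 CPM, well above the lactate carrier Slc16a3 (40.8, 40.7 and 47.2 CPM). The endolysosomal peptide and histidine carriers Slc15a3 and Slc15a4 stood at 211, 253 and 230 CPM and at 62.1, 68.0 and 79.7 CPM. Among ion carriers, Slc12a9 (157, 162 and 147 CPM) and the sodium, potassium and chloride cotransporter Slc12a2 (131, 148 and 149 CPM) were highest. All but 1 of the 25 metal carrier rows were members, led by the zinc carriers Slc39a7 (101, 89.4 and 94.8 CPM) and Slc39a1 (65.4, 63.8 and 65.1 CPM). Among vitamin carriers the folate carrier Slc46a1 (67.2, 70.1 and 78.7 CPM) and the ascorbate carrier Slc23a2 (62.1, 65.8 and 61.4 CPM) led. Within the Slc35 family Slc35c2 (104, 99.1 and 103 CPM) and Slc35b2 (108, 98.3 and 110 CPM) were highest. In the same class the basal glucose carrier Slc2a1 stood at 27.4, 26.95 and 28.03 CPM, below Slc2a5 and below Slc50a1 (145, 134 and 129 CPM), a sugar carrier of another family. The choline carrier-like Slc44a2 (110, 123 and 113 CPM) and Slc22a17 (44.1, 48.5 and 47.9 CPM) led the lipid and organic ion group, the sulfate carrier Slc26a2 (65.4, 67.9 and 64.4 CPM) led phosphate and sulfate, and the polyamine carrier Slc18b1 (14.8, 17.3 and 12.7 CPM) stood alone in its group.

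Classes were compared on UMIs summed per library and class with the edgeR quasi-likelihood test, the library as a block, and Benjamini-Hochberg adjustment over all 9689 genes. The fold changes use TMM normalization factors, whereas the CPM shown are scaled to totals alone. The factors were 0.849 to 0.936 for monocyte-like and 1.09 to 1.11 for microglia-like sums. Fold changes of monocyte-like over microglia-like cells therefore lie above the ratios of the CPM shown. Between monocyte-like and microglia-like cells, 13 members were higher and 43 lower, against 17.8% of all tested genes called higher and 20.2% called lower. Between BAM-like and microglia-like cells, 12 members were higher and 18 lower, with 10.4% and 7.85% of all genes called. The marker-low cells gave 10 members higher and 24 lower, beside 1167 and 1015 of all 9689 genes. Between monocyte-like and BAM-like cells, 13 members were higher and 34 lower, with 14.4% and 16.3% of all genes called. With the marker-low cells these became 9 and 16 members, beside 729 and 802 of all 9689 genes. Among the 153 members, the share called higher was smaller than that of all genes in each of these comparisons, and the share called lower was larger. The marker-low counts went the same way. That choice of cells lowers transcripts that accompany the markers by construction, so they are not further evidence. The difference in shares was not tested for the members as a set. The median log2 fold change of the members was −0.38 for monocyte-like over microglia-like cells, beside −0.21 over all genes tested, and −0.10 for BAM-like over microglia-like cells, beside −0.02. The monocyte-like sums rest on 69 cells and 619719 UMIs, which limits what they can show of members under about 20 CPM.

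**Figure D2:**
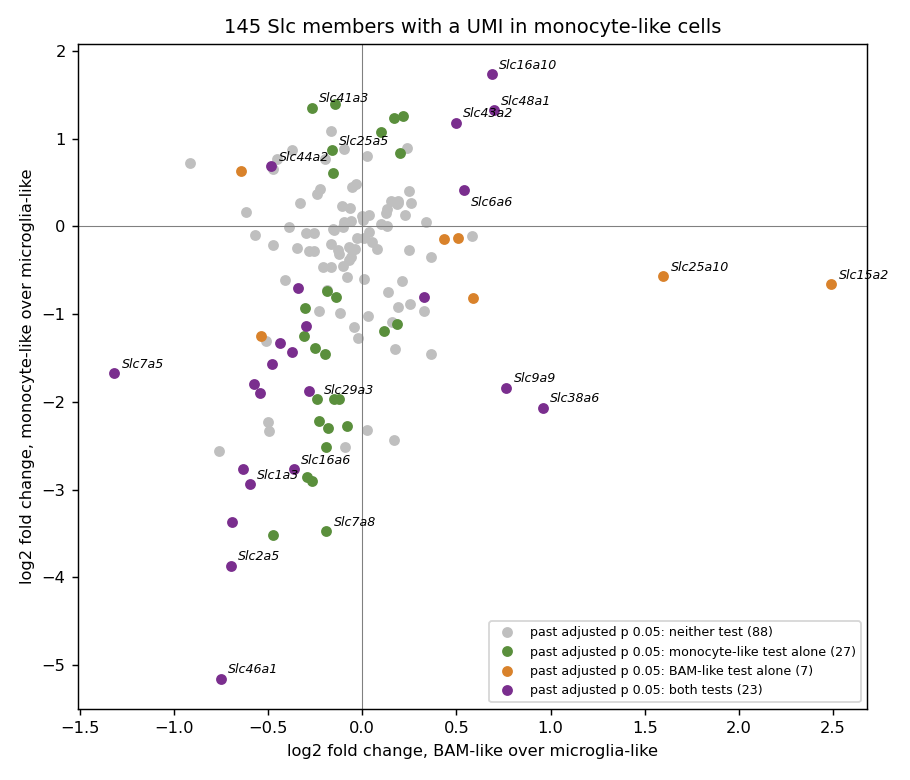
Log2 fold changes of the 145 members with at least 1 UMI in monocyte-like cells, BAM-like over microglia-like (horizontal) against monocyte-like over microglia-like (vertical), coloured by which test passed adjusted p 0.05. Both axes share the microglia-like sums, so the cloud's slope is not a result; Slc2a5 and Slc46a1 lie low on both axes, and Slc15a2 and Slc25a10 are high on the BAM-like axis.

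The sugar carriers were lower in monocyte-like cells in 7 of 11 members and higher in 0, beside 20.2% and 17.8% of all genes tested. The floor, set on cells that were mostly microglia, left out Slc2a6, a sugar carrier at 27.4 CPM in monocyte-like cells. Slc2a5 was lower by a log2 fold change of −3.87 (SE 0.27, adjusted p = 1.1e-15). Slc2a1, at 0, 4.09 and 4.99 CPM, was lower by −2.76 (SE 0.72, adjusted p = 0.0020), and Slc37a2, a sugar phosphate exchanger of the endoplasmic reticulum, by −2.52 (SE 0.37, adjusted p = 2.9e-07). Slc5a3, which imports myo-inositol, had no UMI among the 619719 of the monocyte-like cells and 982 UMIs in microglia-like cells. A count of 0 allows up to 3 UMIs over the group, or 4.84 CPM, so Slc5a3 was at least 2.7-fold higher in microglia-like cells.

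Amino acid carriers were lower in monocyte-like cells in 9 of 18 members and higher in 2, beside 20.2% and 17.8% of all genes tested. Groups were assigned by Slc family number. Slc16a10, an aromatic amino acid carrier that was higher in monocyte-like cells, was therefore counted with the monocarboxylate family and not here. Slc7a8 stood at 5.71, 24.6 and 29.96 CPM in monocyte-like cells (log2 fold change −3.47, SE 0.28, adjusted p = 6.5e-14). Its partner Slc3a2 stood at 34.2, 69.6 and 94.9 CPM there (−1.97, SE 0.20, adjusted p = 6.4e-11), and Slc1a3 at 17.1, 24.6 and 24.97 CPM (−2.94, SE 0.27, adjusted p = 4.3e-12). None of these ranges overlapped with those of microglia-like cells. The members of this group higher in monocyte-like cells were Slc43a2 and Slc6a6. Slc43a2, a carrier of branched-chain and other neutral amino acids, stood at 85.6, 147 and 120 CPM against 63.8, 64.1 and 71.8 CPM in microglia-like cells. For Slc6a6 the ranges in monocyte-like (143, 188 and 235 CPM) and microglia-like cells overlapped. By CPM, its monocyte-like level lay above the microglia-like level of the same library in hCD33m alone.

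The folate carrier Slc46a1 gave 1 UMI in all monocyte-like cells, against 5466 in microglia-like cells, a 45.1-fold ratio with a 95% counting interval of 8.09 to 1781. Of the 6 vitamin carriers, 4 were lower and 0 higher in monocyte-like cells, beside 20.2% and 17.8% of all genes tested. Slc16a6 (28.5, 28.7 and 29.96 CPM, log2 fold change −2.77, SE 0.25, adjusted p = 1.7e-12) and both nucleoside carriers, Slc29a3 (51.4, 102 and 69.9 CPM, −1.97, SE 0.19, adjusted p = 1.4e-11) and Slc29a1 (17.1, 49.1 and 44.9 CPM, −0.81, SE 0.27, adjusted p = 0.016), were lower as well. A further 5 members at 0 in monocyte-like cells passed the test. By the same counting bound on the CPM scale, Slc13a3, a carrier of dicarboxylates, was at least 2.31-fold higher in microglia-like cells. The bound was 2.22-fold for the potassium and chloride cotransporter Slc12a7, 2.15-fold for the zinc exporter Slc30a4, 1.88-fold for Slc36a2 and 1.76-fold for the zinc importer Slc39a4. With the 8 members at 0 set to this bound, the median log2 fold change of all members was −0.35.

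The members higher in monocyte-like cells were led by Slc16a10, which carries aromatic amino acids. It stood at 51.4, 49.1 and 59.9 CPM there, 18.5, 20.9 and 20.4 CPM in microglia-like cells and 30.7, 28.6 and 29.7 CPM in the BAM-like cluster (monocyte-like over microglia-like 1.73, SE 0.31, adjusted p = 1.3e-05), and the 3 classes did not overlap. Slc25a20, the carnitine and acylcarnitine carrier of fatty acid oxidation, stood at 28.5, 20.5 and 34.95 CPM against 12.1, 13.6 and 13.3 CPM in microglia-like cells (1.39, SE 0.43, adjusted p = 0.0083). The magnesium carrier Slc41a3 (28.5, 53.2 and 74.9 CPM against 24.9, 26.7 and 26.3 CPM, 1.35, SE 0.31, adjusted p = 4.0e-04), the heme carrier Slc48a1 (62.8, 36.9 and 49.9 CPM against 24.5, 23.8 and 24.4 CPM, 1.33, SE 0.31, adjusted p = 6.9e-04) and the GDP-fucose carrier Slc35c1 (34.2, 20.5 and 54.9 CPM against 19.2, 18.3 and 18.6 CPM, 1.25, SE 0.38, adjusted p = 0.0079) followed. Slc9a3r1, a scaffold protein, was higher too, at 85.6, 32.8 and 69.9 CPM against 28.5, 31.03 and 35.4 CPM (1.24, SE 0.30, adjusted p = 8.3e-04), with overlapping ranges. Slc25a5 and Slc25a3, already high in microglia-like cells, reached 611, 606 and 444 CPM and 434, 332 and 340 CPM, log2 differences of 0.87 (SE 0.12, adjusted p = 1.5e-07) and 0.83 (SE 0.13, adjusted p = 1.4e-06).

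The member with the largest called increase in BAM-like over microglia-like cells was the proton-coupled oligopeptide carrier Slc15a2. It stood at 24.01, 42.4 and 28.4 CPM in the BAM-like cluster and at 1.93, 7.62 and 8.82 CPM in microglia-like cells, with 0, 4.09 and 4.99 CPM (0, 1 and 1 UMIs) in monocyte-like cells. The log2 fold change over microglia-like cells was 2.49 (SE 0.25, adjusted p = 1.7e-10) for all BAM-like cells and 3.53 (adjusted p = 1.4e-13) for the marker-low cells, where it reached 35.7, 67.3 and 58.9 CPM. Slc25a10, the mitochondrial dicarboxylate carrier, stood at 16.3, 18.01 and 15.8 CPM against 5.63, 6.08 and 6.07 CPM in microglia-like cells (1.60, SE 0.27, adjusted p = 1.3e-05; marker-low cells 2.43). Neither gene's BAM-like values overlapped with its microglia-like values.

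The other members highest over microglia-like cells were Slc38a6, an amino acid carrier (39.4, 40.2 and 55.4 CPM against 23.9, 24.4 and 27.7 CPM, 0.96, SE 0.15, adjusted p = 5.4e-06), Slc9a9, a sodium and proton exchanger of endosomes (185, 189 and 169 CPM against 118, 118 and 110 CPM, 0.77, SE 0.09, adjusted p = 1.1e-08), and the heme carrier Slc48a1 (33.6, 34.95 and 39.6 CPM, 0.70, SE 0.16, adjusted p = 0.0013). Of these, Slc9a9 and Slc38a6 were lower in monocyte-like than in BAM-like cells by −2.60 (SE 0.28, adjusted p = 3.1e-10) and −3.03 (SE 0.60, adjusted p = 8.4e-05), and stayed so with the marker-low cells (−2.60 and −2.98). Slc16a10 and Slc48a1, in contrast, were higher than microglia-like cells in both other classes, though Slc16a10 did not pass the BAM-like test with the marker-low cells (0.69, adjusted p = 0.25).

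Among members lower in BAM-like cells, 4 came close to the monocyte-like level once cells rich in microglial markers were left out. That choice of cells lowers transcripts that accompany the markers by construction, so the marker-low p-values are not evidence for a class difference. The marker-low sums hold 168081 UMIs in Control, 252712 in hCD33M and 339672 in hCD33m, so a missing call does not show equal levels. Slc2a5 differed from microglia-like cells by −0.70 (SE 0.10, adjusted p = 3.0e-07) over all BAM-like cells and by −4.47 (adjusted p = 5.5e-33) in the marker-low cells. Slc1a3 changed likewise from −0.60 (SE 0.10, adjusted p = 5.8e-06; 142, 113 and 141 CPM) to −3.29 (adjusted p = 3.3e-21; 23.8, 15.8 and 14.7 CPM), Slc12a2 from −0.54 (98.0, 80.5 and 92.3 CPM) to −1.99 (29.7, 35.6 and 20.6 CPM), and Slc36a1, a lysosomal proton-coupled amino acid carrier, from −0.43 to −1.66. Over all BAM-like cells the monocyte-like cells were lower than the BAM-like cells in these 4 genes (log2 fold changes −3.17, −2.34, −1.36 and −0.90, all called), whereas against the marker-low cells the values were 0.60, 0.36, 0.10 and 0.33 and none was called (adjusted p = 0.60, 0.76, 0.94 and 0.78).

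Slc7a5, the light chain that imports large neutral amino acids, stood at 11.5, 6.35 and 10.6 CPM in the BAM-like cluster against 29.99, 23.5 and 25.01 CPM in microglia-like cells (−1.32, SE 0.24, adjusted p = 5.3e-05), and at 0, 3.96 and 2.94 CPM in the marker-low cells. Slc46a1 was intermediate in the BAM-like cluster at 37.5, 30.7 and 48.1 CPM (−0.75, SE 0.13, adjusted p = 1.3e-05; marker-low cells −1.97). The calcium exchanger Slc24a3 (−0.69, SE 0.25, adjusted p = 0.044), the lactate exporter Slc16a3 (−0.64, SE 0.16, adjusted p = 0.0027) and Slc2a1 (−0.63, SE 0.20, adjusted p = 0.023) were lower by less than 1 on the log2 scale. Slc16a3 was higher in monocyte-like than in BAM-like cells (34.2, 40.9 and 84.9 against 28.8, 24.4 and 24.4 CPM, 1.28, SE 0.33, adjusted p = 0.0020). Slc7a8 and Slc29a3 kept an intermediate level in the marker-low cells, at 101, 71.2 and 91.3 CPM and at 167, 162 and 115 CPM, above all monocyte-like values.

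**Figure D3:**
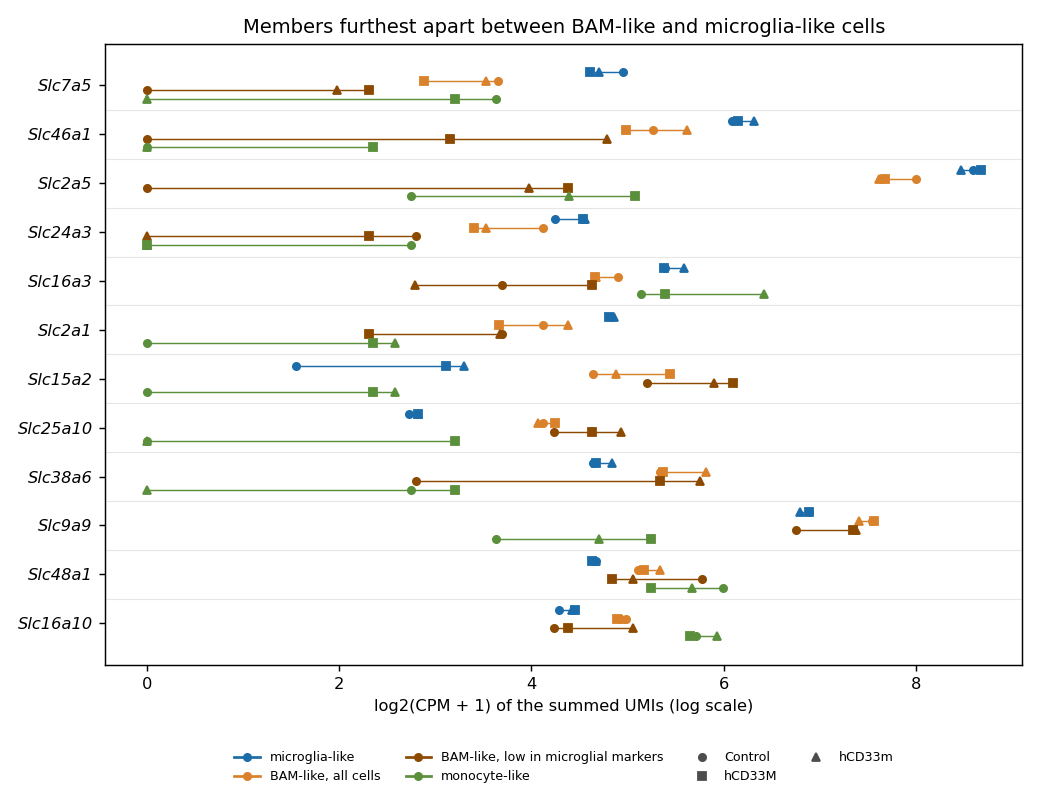
Levels, as log2(CPM + 1), of the 6 members with the lowest (top) and the 6 with the highest (bottom) log2 fold change in BAM-like over microglia-like cells among those called; each point is 1 library. For Slc15a2 and Slc25a10 the marker-low BAM-like cells lie above the whole cluster, and for Slc2a5, Slc46a1 and Slc7a5 below it.

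Promoters are shown for Slc2a5 and Slc15a2. Slc2a5 had the highest mean of the members in microglia-like cells, and Slc15a2 the largest called increase in BAM-like over microglia-like cells. The stretches run from 250 to 71 bases before the annotated start in RefSeq (build GRCm38.p6), 5′ to 3′ on the gene's strand, with GC boxes (GGGCGG on either strand, read as CCGCCC where it lies on the other) in capitals. They cover chr4:150119094-150119273 on the plus strand (Slc2a5) and chr16:36785033-36785212 on the minus strand (Slc15a2).
Slc2a5: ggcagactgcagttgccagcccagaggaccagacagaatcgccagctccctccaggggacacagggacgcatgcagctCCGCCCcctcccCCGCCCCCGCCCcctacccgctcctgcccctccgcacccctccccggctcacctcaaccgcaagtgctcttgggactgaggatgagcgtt
Slc15a2: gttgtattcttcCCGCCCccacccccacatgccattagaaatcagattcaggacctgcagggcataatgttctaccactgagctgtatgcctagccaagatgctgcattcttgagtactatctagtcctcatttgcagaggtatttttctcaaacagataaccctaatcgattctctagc
The Slc2a5 stretch held 3 GC boxes and the Slc15a2 stretch 1. The motif lay in 36.6% of the 161 stretches of the 119 members matched to the table and in 21.1% of all 32851 stretches of this length, searched on both strands. Neither stretch held the E-box CACGTG, found in 8.07% of member stretches and 3.69% of all. Nor did either hold TATAAA on any strand, found in 3.11% and 8.37%. A match describes letters and shows no binding.

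Within microglia-like cells, 30 members had the same highest cluster in all 3 libraries. The matching share over all genes was not computed, so this count is not read as a result about the members. Control has 1 cell in cluster 7 and no value there, so a member highest in that cluster in the other libraries could not be counted. A cluster of 259 cells led by the chemokine genes Ccl4, Ccl3 and Ccl2 (cluster 9) held the highest pooled level of 6 of the 8 members with the largest ratio of highest to median cluster, among those reaching 20 CPM in the highest cluster. Below that level, the mitochondrial glutamate carrier Slc25a22 had a ratio of 2.37 and was highest in the cluster led by the interferon-response genes Ifit3 and Isg15 in every library (33.9, 14.9 and 17.6 CPM). In cluster 9, led by Ccl4, to which the values that follow belong, Slc15a3 stood at 575, 623 and 625 CPM against a median over clusters of 243 CPM. Slc11a2, an importer of iron and other divalent metals, stood at 52.2, 44.3 and 78.8 CPM against a median of 20.7 CPM, the ATP-magnesium and phosphate carrier Slc25a25 at 40.6, 42.4 and 54.0 CPM against 18.5 CPM, and Slc23a2 at 139, 103 and 107 CPM against 62.6 CPM. The arginine carrier Slc7a1 stood at 56.1, 36.9 and 28.1 CPM against 15.3 CPM. The phosphate carrier Slc20a1 rests on 47 UMIs and was highest in cluster 9 in hCD33M and hCD33m but not in Control. Over all libraries it stood at 23.7 CPM in cluster 9 and at 24.6 CPM (40 UMIs) in the unnamed low-depth cluster 4. Slc23a2 was nearly as high in cluster 7 as in cluster 9, at 102 CPM in hCD33M and 95.1 CPM in hCD33m.

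The remaining 2 of the 8 were highest in a cluster of 323 cells led by Cst7, Vcam1 and Cdkn1a (cluster 7), which held 1 Control, 161 hCD33M and 161 hCD33m cells. Slc38a10 stood there at 167 CPM in hCD33M and 184 CPM in hCD33m, against a median over microglia-like clusters of 78.4 CPM, and Slc39a4 at 24.5 and 30.9 CPM against 8.23 CPM. The level of Slc38a10 was not particular to cluster 7. In the unnamed low-depth cluster 4 it stood at 209, 240 and 203 CPM. No test was made between clusters, since 1 of the libraries has almost no cells in cluster 7 and clusters of a library share its depth.

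**Figure D4:**
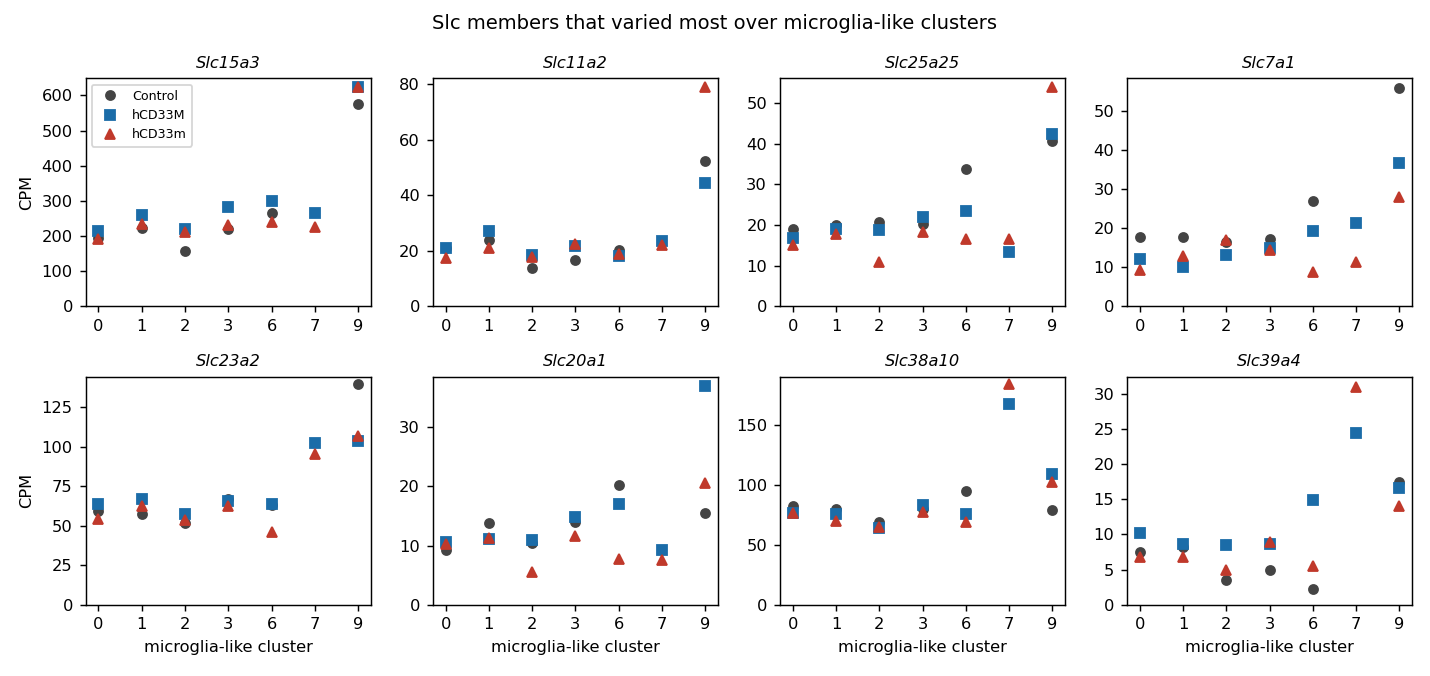
CPM of the 8 members whose highest microglia-like cluster exceeded the median cluster most, among those with at least 20 CPM in the highest cluster, by cluster number and library; Control has 1 cell in cluster 7 and is not drawn there. Cluster 9 (Ccl4, Ccl3) tops Slc15a3, Slc11a2, Slc25a25, Slc7a1 and Slc23a2 in every library, and cluster 7 (Cst7, Vcam1) tops Slc38a10 and Slc39a4 in the hCD33 libraries.

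Between genotypes the members lay close together in microglia-like cells. Members that differed by 1.5-fold or more, and reached 5 CPM in the library where they were higher, numbered 2 higher and 0 lower in hCD33m over Control (0.978% and 0.957% of all genes), 2 higher and 0 lower in hCD33M over Control (0.719% and 0.354%), and 0 and 0 in hCD33m over hCD33M (0.676% and 0.925%). Both comparisons with Control use the same Control library. The floor was set over all kept cells, of which Control gave the fewest, so genes high in Control alone passed it less easily. This holds for the members and for all genes alike, and limits what the direction of these counts can show. The median log2 ratio of the members was 0.01, 0.03 and 0.00 in this order, beside −0.00, 0.01 and −0.02 over all genes. The 95% counting interval lay above 0 for 35, 25 and 28 members and below 0 for 22, 18 and 28. As shares these were 22.88%, 16.34% and 18.3% above and 14.38%, 11.76% and 18.3% below, beside 18.79%, 16.67% and 14.5% above and 19.4%, 11.07% and 21.6% below over all genes. The interval holds no spread between mice.

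Slc15a2 was the member furthest apart, with 37, 202 and 260 UMIs in microglia-like cells, or 1.93, 7.62 and 8.82 CPM. Its Control level lay below the floor of 5 CPM, which was set over all libraries together, so its levels in the hCD33 libraries helped it to become a member. Its log2 ratio was 2.19 for hCD33m over Control (counting interval 1.69 to 2.73), 1.98 for hCD33M over Control (1.47 to 2.53) and 0.21 for hCD33m over hCD33M (−0.06 to 0.48). The lowest value over the alternatives was 1.52 for both ratios over Control, with cells thinned to 2000 UMIs for hCD33m and over all kept cells for hCD33M. In the 4 largest microglia-like clusters Control lay from 1.38 to 2.60 CPM and the hCD33 libraries from 6.50 to 10.15 CPM, without overlap. The smaller clusters rest on few UMIs and did not all show this order: cluster 9 (led by Ccl4) had 5.81, 5.53 and 9.71 CPM from 3, 3 and 9 UMIs. In the BAM-like cluster Slc15a2 stood at 24.01, 42.4 and 28.4 CPM (25, 40 and 43 UMIs). Thinned to 2000 UMIs per cell, 0.472%, 1.53% and 1.53% of microglia-like cells held a UMI (exact 95% intervals 0.259 to 0.792, 1.19 to 1.93 and 1.20 to 1.92), and 0 of 69 monocyte-like cells did.

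Slc5a3 stood at 9.80, 11.9 and 16.3 CPM, a log2 ratio of 0.73 for hCD33m over Control (0.48 to 0.98) and 0.28 for hCD33M over Control (0.01 to 0.55). Its gene overlaps Mrps6 on the same strand, so a 3′ tag of either gene could be counted to the other; Mrps6 stood at 19.1 CPM. With thinned cells the hCD33m over Control ratio of Slc5a3 was 0.56, below 1.5-fold. Slc39a4 stood at 6.47, 10.1 and 8.45 CPM, a log2 ratio of 0.65 for hCD33M over Control (0.33 to 0.96). Without cluster 7 that ratio was 0.56 (0.25 to 0.89), below 1.5-fold, as it was with the stricter cell filter (0.58), while with thinned cells it was 1.23. Without cluster 7, Slc15a2 and Slc5a3 stayed past 1.5-fold. All 3 members lie at the low end of the set, and with a minimum of 20 CPM no member was 1.5-fold apart in any pair.

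**Figure D5:**
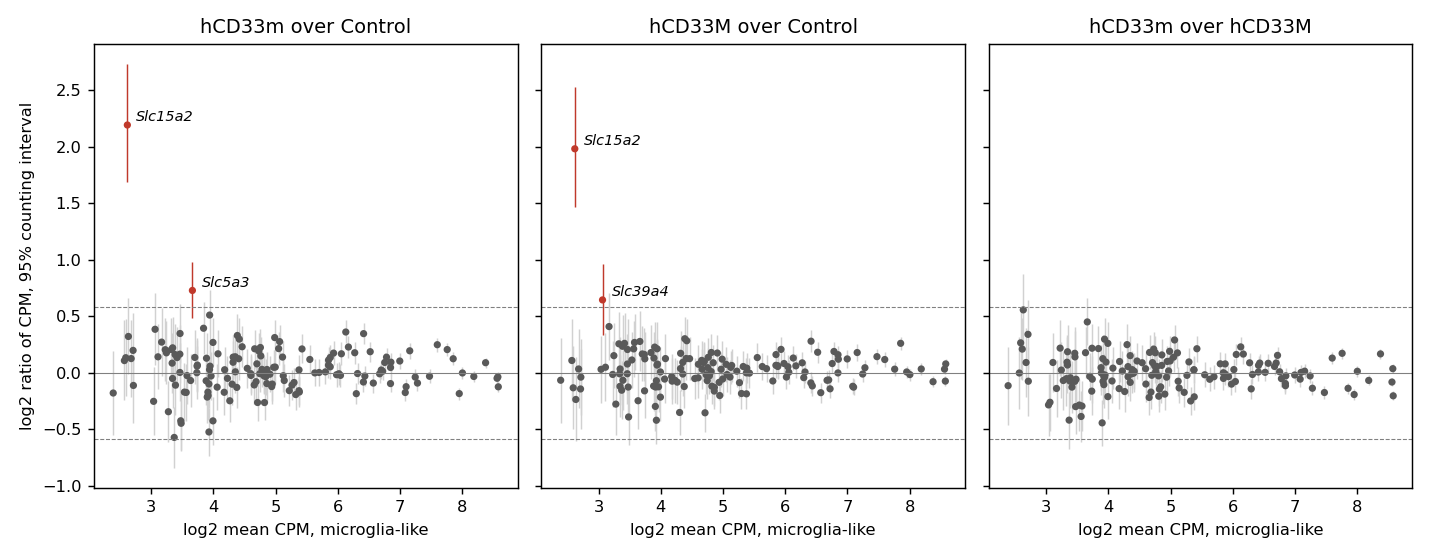
Log2 ratio of CPM in microglia-like cells for the 153 members in each pair of genotypes, against the log2 mean CPM of the 3 libraries; bars are 95% counting intervals, dashed lines mark 1.5-fold, and members at least 1.5-fold apart are red and named. Ratios narrow towards 0 as level rises, and the named members all lie at low levels.

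Among members with at least 20 CPM the ratios furthest from 0 were small. Slc36a1 stood at 73.4, 89.1 and 93.3 CPM, 0.35 on the log2 scale for hCD33m over Control (0.25 to 0.44) and 0.28 for hCD33M over Control (0.18 to 0.38). Slc15a4, the endolysosomal histidine and peptide carrier, stood at 62.1, 68.0 and 79.7 CPM (0.36 for hCD33m over Control, 0.26 to 0.46), and Slc24a3 at 17.9, 22.1 and 22.6 CPM (0.33 and 0.30). Slc10a3, which overlaps Ubl4a on the same strand and lies on the X chromosome, stood at 18.6, 22.6 and 22.8 CPM, and the anion exchanger Slc4a2 at 31.3, 31.03 and 37.97 CPM. On the lower side, Slc7a5 stood at 29.99, 23.5 and 25.01 CPM (−0.26 for hCD33m and −0.35 for hCD33M over Control), the calcium exchanger Slc8a1 at 30.8, 28.3 and 25.7 CPM (−0.26 and −0.12), Slc25a25 at 20.7, 19.5 and 17.4 CPM (−0.25 and −0.08), the zinc carrier Slc39a3 at 21.7, 17.1 and 20.3 CPM (−0.10 and −0.35), and the CMP-sialic acid carrier Slc35a1 at 32.96, 28.7 and 30.8 CPM (−0.10 and −0.20). For hCD33m over hCD33M the lowest were the endosomal sodium and proton exchanger Slc9a8 (−0.25), Slc7a6os (−0.22) and the lysosomal sialic acid carrier Slc17a5 (−0.21).

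Genes that work with the carriers were read from lists chosen with earlier results known. Of 26 transporters of related families under other symbols, 19 reached the floor; 4 were higher and 6 lower in monocyte-like than in microglia-like cells, and 2 were higher and 1 lower in BAM-like cells, beside 17.8% and 20.2%, and 10.4% and 7.85%, of all genes tested; with 19 genes these counts are not read as a result about the list. Among them Slco2b1, an organic anion carrier, stood above every member in microglia-like cells at 496, 536 and 546 CPM, and at 28.5, 49.1 and 89.9 CPM in monocyte-like cells (log2 fold change −2.90, adjusted p = 1.7e-15). Ucp2, a mitochondrial carrier of the same fold as the Slc25 family, went the other way, at 244, 237 and 287 CPM in microglia-like and 1022, 1024 and 939 CPM in monocyte-like cells (2.29, adjusted p = 9.7e-21). The chaperones of the monocarboxylate carriers were divided: Bsg stood at 566, 524 and 549 CPM in microglia-like and 194, 147 and 190 CPM in monocyte-like cells (−1.32, adjusted p = 9.4e-10), and Emb at 0.834, 1.66 and 1.73 CPM against 559, 373 and 330 CPM (8.45, adjusted p = 1.2e-28).

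The metabolic partners were divided as well. Of 9 hexose and lactate genes, 2 were higher and 3 lower in monocyte-like cells, beside 17.8% and 20.2% of all genes tested. Ldhb, a lactate dehydrogenase subunit, stood at 488, 486 and 523 CPM in microglia-like and 51.4, 77.8 and 84.9 CPM in monocyte-like cells (−2.45, edgeR adjusted p = 6.4e-14). The other subunit, Ldha, was higher in monocyte-like cells (0.95, edgeR adjusted p = 1.3e-05). Hexokinase Hk2 stood at 282, 361 and 403 CPM in microglia-like cells, a log2 ratio of 0.51 for hCD33m over Control (0.47 to 0.56) and 0.36 for hCD33M over Control (0.31 to 0.41), below 1.5-fold. Glul, glutamine synthetase, stood at 515, 501 and 688 CPM, 0.42 for hCD33m over Control (0.38 to 0.45). Of the tested genes in the lists for glutamine and glutathione (6), lysosomal amino acid sensing (11) and zinc buffering (2), 2, 4 and 0 were higher and 2, 2 and 1 lower in monocyte-like than in microglia-like cells. Over all genes tested the shares were 17.8% higher and 20.2% lower, and counts from such short lists are not read as results about them.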

How the data were processed

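Per the labels and the study's methods, Cell Ranger was run by the authors against mm10, Seurat was used on its output, and the deposited values are raw UMI counts per gene and cell barcode, 1 table per library. Cells with more than 200 and fewer than 8000 genes and at most 10% mitochondrial UMIs were kept. Cells were clustered with scanpy 1.11.5 (2000 variable genes, 15 principal components, 20 neighbours, Leiden resolution 0.5) without the Slc rows and named from marker lists. No doublet caller was run. UMIs were summed per library and class, and classes were compared with edgeR 4.0.16 (quasi-likelihood test, TMM factors, library as block, Benjamini-Hochberg adjustment over 9689 genes, threshold 0.05), with DESeq2 1.42.0 as an alternative. The block pairs the classes of 1 library. Classes of a library come from the same pooled mice, so p-values measure the spread between 3 libraries of different genotype, which may in part be technical. Genotypes have 1 library each and were compared by CPM ratios with exact 95% counting intervals. The scripts were tested on simulated data. Coordinates of genes and promoters are from GENCODE and RefSeq annotation of GRCm38.

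Named genes were the 15 members highest in microglia-like cells, the 6 highest and 6 lowest called fold changes per class comparison, the members 1.5-fold apart between genotypes plus the 3 highest and 3 lowest ratios at 20 CPM or more, the 2 highest members per role group, the 8 with the largest ratio of highest to median microglia-like cluster among those with at least 20 CPM in the highest, and the 5 rows on each side of the floor. The members and all lists were chosen with earlier results of these data known. Slc40a1 and Slc11a1 were left out by the rule. Alternatives were other normalization factors, DESeq2, no block, no floor on genes, a stricter cell filter (at least 1000 genes, at most 5% mitochondrial UMIs), leaving out the top 5% of cells by UMIs, other clustering resolutions, thinning to 2000 UMIs per cell, a minimum of 20 CPM, and leaving out each library. After the data were seen, the BAM-like cells low in microglial markers and the removal of cluster 7 were added.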

Additional observations from a re-analysis of the deposited data

How the results depend on the processing

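Between BAM-like and microglia-like cells, the 18 members called lower became 7 with DESeq2 and 10 to 10 when any 1 library was left out, and the 12 called higher became 8 and 8 to 10. Between monocyte-like and BAM-like cells, the 13 called higher became 8 to 10 when 1 library was left out (8 without Control), and the 34 called lower became 16 with the BAM-like cells low in microglial markers, an alternative chosen after the data were seen. In that alternative the monocyte-like over BAM-like log2 fold change turned positive for Slc2a5 (0.60, adjusted p = 0.599), Slc1a3 (0.36, adjusted p = 0.762), Slc36a1 (0.33, adjusted p = 0.778) and Slc12a2 (0.10, adjusted p = 0.936), all by edgeR. Without the replicate block, that is without the library as a block, the counts of members higher and lower were 11 and 13, 15 and 45, and 15 and 33 (BAM-like over microglia-like, monocyte-like over microglia-like, monocyte-like over BAM-like). For the named members, 1036 class values kept their direction and side of the threshold over the alternatives, 147 lost the call and 4 turned. Members at least 1.5-fold apart numbered 0 in place of 2 for hCD33m over Control with a minimum of 20 CPM, and 3 (2 higher and 1 lower) with cells thinned to 2000 UMIs. For hCD33M over Control they numbered 1 with the stricter cell filter, 4 with cells thinned to 2000 UMIs, 0 with a minimum of 20 CPM and 1 without cluster 7, in place of 2. For hCD33m over hCD33M they numbered 3 with thinned cells, in place of 0. The cause of these changes was not tested. Depth limits the monocyte-like class most, since its 619719 UMIs make a count of 0 compatible with up to 4.84 CPM.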

Other observations

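Some Slc rows missed the floor of 5 CPM because their level in microglia-like cells was low, although they were higher in the rarer classes. They were picked after their values were seen and were not tested. Slc2a6, a glucose carrier of lysosomes, stood at 1.30 CPM in microglia-like, 5.14 CPM in BAM-like and 27.4 CPM in monocyte-like cells, the last from 17 UMIs, over all libraries. Slc22a15, an organic ion carrier, stood at 0.386, 2.57 and 24.2 CPM (15 UMIs in monocyte-like cells). Slc1a5, a neutral amino acid exchanger that carries glutamine, stood at 2.46, 9.71 and 19.4 CPM. In contrast, Slc26a11, a sulfate and anion carrier, and Slc14a1, a urea carrier, were highest in BAM-like cells, at 2.92, 15.4 and 9.68 CPM and at 2.21, 14.3 and 1.61 CPM.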
